A study of Mus musculus with 4 samples.

Results

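The genes described here are those that stop the cell cycle in differentiating cells: the cyclin-dependent kinase (CDK) inhibitors *Cdkn1a*, *Cdkn1b*, *Cdkn1c*, *Cdkn2c* and *Cdkn2d*, and the pocket protein genes *Rb1*, *Rbl1* and *Rbl2*. Members were the genes of the table whose symbol equalled one of these names, and 6 of the 8 were found among 12814 genes. *Cdkn2c* and *Cdkn2d* were not analysed here, so the CIP/KIP inhibitors and the pocket proteins were each complete and the INK4 inhibitors of the list had no value.

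Cells were sorted from the inner ears of newborn mice of the C57BL/6 background that carried *Atoh1/nGFP*, a transgene that marks the nuclei of hair cells (HCs), the mechanosensory cells of the ear, with green fluorescent protein, and their RNA was sequenced. The 4 populations were HCs and epithelial non-sensory cells (ENSCs) of the cochlea, the organ of hearing, and HCs and ENSCs of the vestibular system, the organ of balance. HCs were positive for the fluorescent protein and for the epithelial surface protein CD326, ENSCs were positive for CD326 only, and each sort pooled the ears of several pups. All mice carried the transgene, none received an agent, and the labels name no other allele. Each population gave 1 library, so no difference below has a replicate error or a p-value, and fewer cells of a type cannot be told apart from less RNA per cell. The unit is a quantile-normalized signal per gene with a floor of 20, and a gene was counted as higher or lower where 2 libraries differed by at least 3-fold.

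The HC labels matched the genes that define HCs, and the vestibular ENSC library stood apart. All 5 HC markers measured were at least 3-fold higher in HCs of both organs, and their summed signal was 6058.5 in cochlear HCs against 186.75 in cochlear ENSCs, and 9773.5 in vestibular HCs against 100.25 in vestibular ENSCs. Of 5 supporting cell markers, *Epyc*, *Otogl* and *Tectb* were at least 3-fold lower in cochlear HCs than in cochlear ENSCs, and *Epyc* also in vestibular HCs, at 210 against 1119.25. Their sum was 6653.25 in cochlear HCs, 77202 in cochlear ENSCs, of which *Epyc* was 62028.5, 3752.5 in vestibular HCs and 3855 in vestibular ENSCs, and *Lfng* had positive log2 ratios of HCs to ENSCs, 1.01 and 1.46. Vestibular ENSCs had the highest endothelial and mesenchymal signals, with 1461.75 for *Kdr*, the 1 of 4 endothelial markers measured, against 24.25 to 29.75 elsewhere, and 1059.25 for the mesenchymal *Col1a1* and *Col3a1*, 2 of 4 listed, against 47.5 to 104.5. The glial markers *Sox10* and *Erbb3* were at 1183 and 2114.5 there. Of both epithelial markers, *Epcam*, which encodes CD326, was highest in vestibular ENSCs (7511), and *Cdh1* (3308.25) was below both cochlear libraries (6003 and 4852.75) and above vestibular HCs (178.5), with sums of 10819.25 there and 1317.75 to 8229 elsewhere. *Nefl* and *Nefm*, 2 of 3 listed neuronal markers, summed to 4376 and 4591.25 in the HC libraries and to 117.75 and 40 in the ENSC libraries. They were thus high where the HC markers were, and whether they mark neurons here was not tested. Markers of red blood cells and macrophages were not analysed here. The part of these other cell types in the values of the cell cycle genes was not tested.

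Cells divide when cyclins activate CDKs, which phosphorylate the pocket proteins pRB, p107 and p130 and so release E2F transcription factors from them. CIP/KIP inhibitors (p21, p27 and p57, from *Cdkn1a*, *Cdkn1b* and *Cdkn1c*) bind cyclin-CDK complexes, and INK4 inhibitors bind CDK4 and CDK6. In the cochlea HCs and supporting cells leave the cell cycle before birth, whereas the vestibular organs of the mouse still add cells after it. In the sensory epithelium p27 appears as cells stop dividing and stays in supporting cells, and mice without *Rb1* in the ear have HCs that enter the cycle again.

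Promoter sequences are shown for 3 members, because p53 is known to act on *Cdkn1a* and E2F on *Rbl1*, and *Cdkn1b* stands beside them as the other CIP/KIP gene with an entry. Sequences are from RefSeq on GRCm38.p6, a later build than the mm9 coordinates of the gene positions given further on, and each runs 5′ to 3′ over 250 bases and ends at the base before an annotated start, which is position -1. The first *Cdkn1a* sequence, from the upstream start at chr17:29090729-29090978 on the plus strand, has a p53 site in capitals at -51 to -32. The second *Cdkn1a* sequence, at chr17:29093519-29093768 on the plus strand, lies before the downstream start and has GC boxes in capitals at -104 to -99 and -46 to -41. The *Cdkn1b* sequence at chr6:134920151-134920400 on the plus strand has 1 GC box in capitals at -61 to -56, and the *Rbl1* sequence at chr2:157204535-157204784 on the minus strand has an E2F motif in capitals at -18 to -11 and a GC box, left in lower case, at -226 to -221.
Cdkn1a upstream start: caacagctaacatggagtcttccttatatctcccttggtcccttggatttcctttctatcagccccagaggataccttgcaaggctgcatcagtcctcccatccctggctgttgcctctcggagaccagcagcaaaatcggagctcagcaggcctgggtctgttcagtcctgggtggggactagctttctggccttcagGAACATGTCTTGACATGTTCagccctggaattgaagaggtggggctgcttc
Cdkn1a downstream start: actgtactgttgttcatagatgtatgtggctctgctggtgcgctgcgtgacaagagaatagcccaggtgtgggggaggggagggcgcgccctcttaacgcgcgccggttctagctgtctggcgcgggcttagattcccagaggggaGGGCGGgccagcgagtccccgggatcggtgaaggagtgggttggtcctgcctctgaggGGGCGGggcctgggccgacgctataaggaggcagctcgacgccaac
Cdkn1b: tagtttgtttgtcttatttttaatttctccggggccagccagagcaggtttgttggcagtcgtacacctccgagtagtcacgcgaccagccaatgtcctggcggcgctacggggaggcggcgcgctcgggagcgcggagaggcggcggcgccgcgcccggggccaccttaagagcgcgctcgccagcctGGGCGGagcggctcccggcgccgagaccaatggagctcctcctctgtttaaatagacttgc
Rbl1: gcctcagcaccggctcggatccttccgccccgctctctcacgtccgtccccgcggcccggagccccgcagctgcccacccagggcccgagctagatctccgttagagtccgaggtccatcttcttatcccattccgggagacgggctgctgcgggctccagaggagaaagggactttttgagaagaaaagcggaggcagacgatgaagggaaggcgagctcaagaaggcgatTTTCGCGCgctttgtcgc
The motifs were searched as letters on both strands. The E2F motif was TTTCCCGC, TTTCGCGC, TTTGCCGC or TTTGGCGC and was held by 611 of 32851 promoters of this length (1.86%), and the GC box GGGCGG by 10756 (32.7%). The p53 site was the 20-letter consensus with 1 mismatch allowed, a tolerance chosen after the exact consensus had not matched, and 25 promoters held it (0.0761%). A cell cycle homology element, TTTGAA, was in 5252 promoters (16.0%), and *Rbl2* held it at -201 to -196. These matches describe letters in the windows and not binding.

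Among the CIP/KIP inhibitors, *Cdkn1c* differed most between the 4 populations, and its HC to ENSC contrast pointed in opposite directions in the 2 organs. *Cdkn1c*, which encodes p57 and is expressed from the maternal allele, lies on the minus strand at chr7:150644255-150646955 of mm9 (ENSMUSG00000037664). Its signal was 1625 in cochlear HCs, 5500.5 in cochlear ENSCs, 1975.75 in vestibular HCs and 800 in vestibular ENSCs. The HC libraries lay close together, and the ENSC libraries were the highest and the lowest of the 4. In the cochlea the signal was 3.38-fold lower in HCs than in ENSCs (log2 ratio -1.76), whereas in the vestibular system it was 2.47-fold higher in HCs (log2 ratio 1.30). Between organs the ENSC signals differed 6.88-fold and the HC signals 1.22-fold. With the correction for length and GC content described further on, the cochlear log2 ratio was -1.49, under 3-fold, and the vestibular one 2.58.

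*Cdkn1a* gave another order. The gene encodes p21, a p53 target induced by DNA damage and by differentiation, whose upstream promoter sequence holds the p53 site in capitals, and it lies on the plus strand at chr17:29227924-29237667 of mm9 (ENSMUSG00000023067). Its signal was 751 in cochlear HCs, 1004.5 in cochlear ENSCs, 1303.75 in vestibular HCs and 4175.75 in vestibular ENSCs. The vestibular ENSC library stood alone, and the other 3 lay within 1.74-fold of each other. *Cdkn1a* was 3.20-fold lower in vestibular HCs than in vestibular ENSCs (log2 ratio -1.68) and 1.34-fold lower in cochlear HCs than in cochlear ENSCs (log2 ratio -0.42). The ENSCs of the cochlea had a 4.16-fold lower signal than those of the vestibular system, and the HCs a 1.74-fold lower one. With the correction for length and GC content described further on, the vestibular log2 ratio was -0.84 and that between ENSCs -1.54, both under 3-fold. The library that stood alone here was also the one with the highest endothelial and mesenchymal marker signals, and their part in the *Cdkn1a* value was not tested.

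*Cdkn1b*, which encodes p27, differed by organ more than by cell type. It lies on the plus strand at chr6:134870419-134875531 of mm9 (ENSMUSG00000003031). Its signal was 1716.5 in cochlear HCs, 2307.25 in cochlear ENSCs, 771.5 in vestibular HCs and 571 in vestibular ENSCs, so that both cochlear libraries were above both vestibular libraries. The cochlear to vestibular fold was 2.22 in HCs and 4.04 in ENSCs, and with the length and GC correction the ENSC log2 ratio was 1.50, under 3-fold. Within an organ, cochlear HCs differed from cochlear ENSCs by a log2 ratio of -0.43, and vestibular HCs from vestibular ENSCs by 0.43, a 1.34-fold and a 1.35-fold difference in opposite directions.

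**Figure D1:**
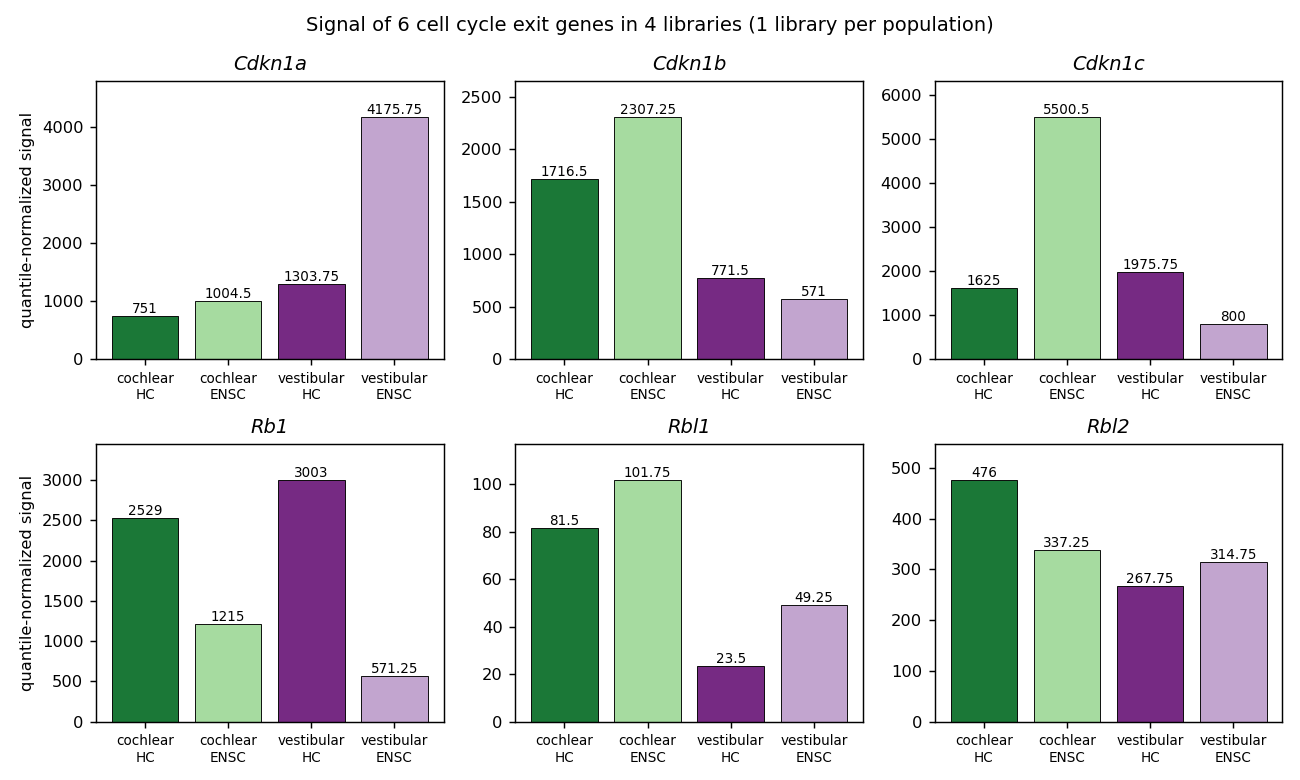
Bars give the quantile-normalized signal (y axis from 0, set per gene) of each of the 6 members in the 4 libraries, 1 library per bar with no error. *Cdkn1a* peaked at 4175.75 in vestibular ENSCs and *Cdkn1c* at 5500.5 in cochlear ENSCs, while *Rb1* was highest in the HC libraries, at 2529 and 3003.

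The INK4 inhibitors in the list had no value. In the mm9 genome 1123 of the 1173 stretches of 50 nt in the exons of *Cdkn2d* (95.74%) occur a second time, at chr9:123836860-123839608, where the annotation has *Gm4694*. A read of that length from such a stretch cannot be given to 1 place, and no stretch of the other 7 listed genes had a copy elsewhere, *Cdkn2c* included. What part this had in the absence of a value for either gene was not tested. *Cdkn2d* encodes p19, the INK4 protein known to keep HCs from dividing after birth. *Cdkn2b*, an INK4 gene outside the list, was at 32.5 in cochlear ENSCs and at the floor of 20 in the other 3 libraries.

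Of the pocket protein genes, *Rb1* was higher in HCs in both organs. *Rb1* encodes the retinoblastoma protein and lies on the minus strand at chr14:73583480-73725629 of mm9 (ENSMUSG00000022105). Its signal was 2529 in cochlear HCs, 1215 in cochlear ENSCs, 3003 in vestibular HCs and 571.25 in vestibular ENSCs, and both HC libraries were above both ENSC libraries. Cochlear HCs had 2.08-fold more than cochlear ENSCs (log2 ratio 1.06), under the 3-fold threshold, and vestibular HCs 5.26-fold more than vestibular ENSCs (log2 ratio 2.39). The HC signals of the organs differed 1.19-fold and the ENSC signals 2.13-fold. Of the exonic bases of *Rb1*, 488 (8.11%) overlap *Rcbtb2* and 408 (6.78%) overlap *Lpar6*, both on the opposite strand, and without a stated strand setting their reads cannot be told apart in those bases. The HC to ENSC log2 ratio was 0.72 (cochlea) and 1.71 (vestibular system) for *Rcbtb2*, and -0.86 and -1.93 for *Lpar6*.

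*Rbl2* and *Rbl1* had lower signals than *Rb1* in every library. *Rbl2* encodes p130, the pocket protein typical of resting cells, and lies on the plus strand at chr8:93593956-93647743 of mm9 (ENSMUSG00000031666). Its signal was 476 in cochlear HCs, 337.25 in cochlear ENSCs, 267.75 in vestibular HCs and 314.75 in vestibular ENSCs, the narrowest range of the 6 members. The cochlear log2 ratio of HCs to ENSCs was 0.50 and the vestibular one -0.23, and 9.95% of its exonic bases overlap *Aktip* on the opposite strand.

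*Rbl1* encodes p107, the pocket protein typical of dividing cells and itself an E2F target, with the E2F motif shown in capitals in its sequence, and lies on the minus strand at chr2:156971629-157030270 of mm9 (ENSMUSG00000027641). Its signal was 81.5 in cochlear HCs, 101.75 in cochlear ENSCs, 23.5 in vestibular HCs and 49.25 in vestibular ENSCs. The vestibular HC value lay in the low range, up to 30.5 in that library, where the table does not rank genes, so ratios to it are lower bounds. Against vestibular ENSCs the vestibular HC value of *Rbl1* was lower by at least 1.61-fold, and it was at least 2.67-fold lower than that of cochlear HCs. As deposited the latter ratio was 3.47. *Rbl1* was 1.25-fold lower in cochlear HCs than in cochlear ENSCs, and between the ENSCs it was 2.07-fold higher in the cochlea.

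**Figure D2:**
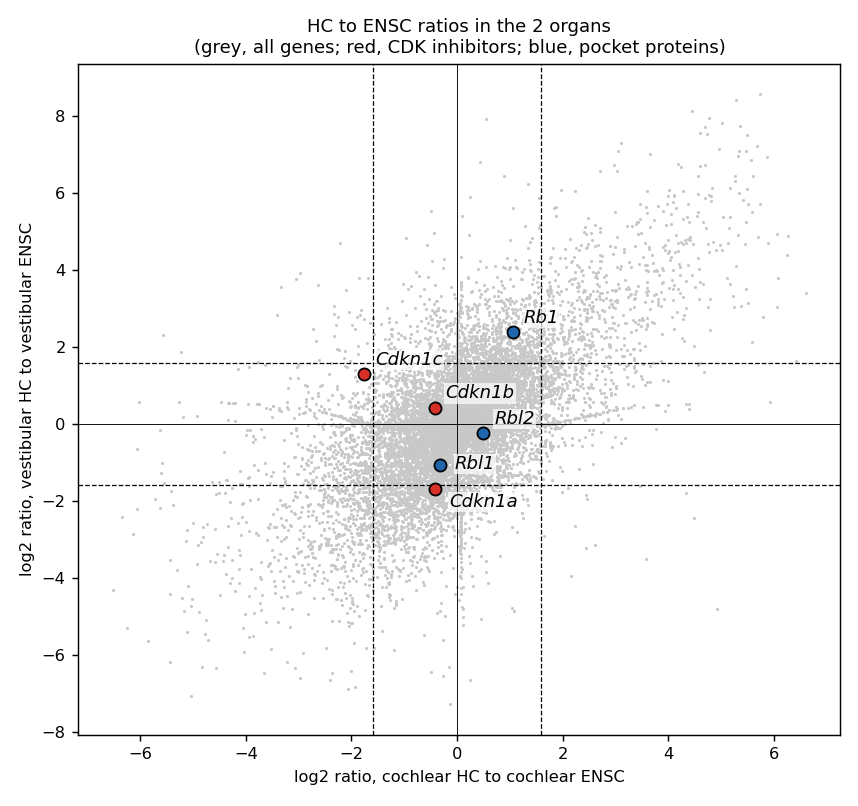
HC to ENSC log2 ratio in the cochlea (x axis) against that in the vestibular system (y axis) for the 6 members over all genes of the table, with lines at 3-fold. *Cdkn1c* lies at -1.76 and 1.30, *Rb1* at 1.06 and 2.39, and *Cdkn1a* at -0.42 and -1.68.

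Over the 6 members, none had a signal 3-fold or more above that of ENSCs in cochlear HCs, where 8.39% of all genes were, and *Cdkn1c* was lower, where 9.2% were, which makes 1 of 6 past the threshold either way against 17.6% of all genes. In the vestibular system *Rb1* was higher (13.8% of all genes) and *Cdkn1a* lower (14.3%), 2 of 6 against 28.1% either way. The length and GC correction ended the call of *Cdkn1c* in the cochlea (-1.49) and of *Cdkn1a* in the vestibular system (-0.84), and added *Cdkn1c* there (2.58). Between cochlear and vestibular HCs *Rbl1* was higher as deposited (4.21%) and no member was lower (5.09%), 1 of 6 against 9.3% either way, and the *Rbl1* bound of 2.67 is under the threshold. Between the ENSCs *Cdkn1b* and *Cdkn1c* were higher in the cochlea (7.8%) and *Cdkn1a* lower (7.94%), so that 3 of 6 members passed in this contrast, against 15.7% of all genes. With the length and GC correction 1 of 6 did, against 12.3%. The members had a median log2 ratio of -0.37 for cochlear and 0.10 for vestibular HCs against ENSCs, of 0.29 between HCs and of 1.07 between ENSCs, and that of all genes lay within 0.01 of 0 in each contrast. With 6 members, each of these counts rests on 1 to 3 genes.

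The vestibular HC to ENSC log2 ratio minus the cochlear one was 3.06 for *Cdkn1c*, 1.34 for *Rb1*, 0.86 for *Cdkn1b*, -0.73 for *Rbl2*, -0.75 as deposited for *Rbl1* and -1.26 for *Cdkn1a*. Of all genes 21.4% differed between organs by 3-fold or more in this measure, and *Cdkn1c* was the 1 member that did. Signs were opposite in the organs for *Cdkn1c*, *Cdkn1b* and *Rbl2*, 3 of 6 members against 27% of all genes. The highest signal of a member over its lowest was 6.88-fold for *Cdkn1c*, 5.56-fold for *Cdkn1a*, 5.26-fold for *Rb1*, 4.04-fold for *Cdkn1b*, at least 3.34-fold for *Rbl1* and 1.78-fold for *Rbl2*. The median of this range over all genes was 2.83-fold.

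Levels of different genes were compared as signal per kb of exonic length. *Cdkn1c* had the highest level of the 6 members in cochlear HCs (842 per kb), cochlear ENSCs (2849 per kb) and vestibular HCs (1023 per kb), and *Cdkn1a* in vestibular ENSCs (1878 per kb). *Rbl2* and *Rbl1* were the lowest in every library, at 38.5 to 68.4 and 3.92 to 17.0 per kb. *Rb1* was the second of the 6 in cochlear HCs (420 per kb) and the fourth in both ENSC libraries (202 and 95.0 per kb). Without replicates it cannot be said which neighbours in these orders differ beyond their spread, and in cochlear HCs *Rb1*, *Cdkn1b* (377 per kb) and *Cdkn1a* (338 per kb) were close.

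Within the CIP/KIP family the make-up of the summed level per kb differed from library to library. *Cdkn1c* made up 54.1% of it in cochlear HCs, 74.8% in cochlear ENSCs, 57.5% in vestibular HCs and 17.1% in vestibular ENSCs. *Cdkn1a* made up 21.7%, 11.9%, 33.0% and 77.7% in the same order, and *Cdkn1b* 24.2%, 13.3%, 9.53% and 5.19%. The 3 genes summed to 1556 and 1779 per kb in cochlear and vestibular HCs and to 3807 and 2418 per kb in the matching ENSCs, higher in ENSCs in each organ. The vestibular order turned under the correction for length and GC content described further on: with the HC values held, the ENSC sum was 1397 per kb, and with the ENSC values held, the HC sum was 3643 per kb. The cochlear order was kept. For the pocket proteins the order was the reverse and was kept in both organs, with 502 and 542 per kb in HCs and 267 and 148 per kb in ENSCs. *Rb1* made up 83.7% and 92.2% of the pocket protein level in HCs, and 75.5% and 64.0% in ENSCs. *Rbl2* took 30.5% of it in vestibular ENSCs and 7.10% to 18.1% in the other libraries.

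**Figure D3:**
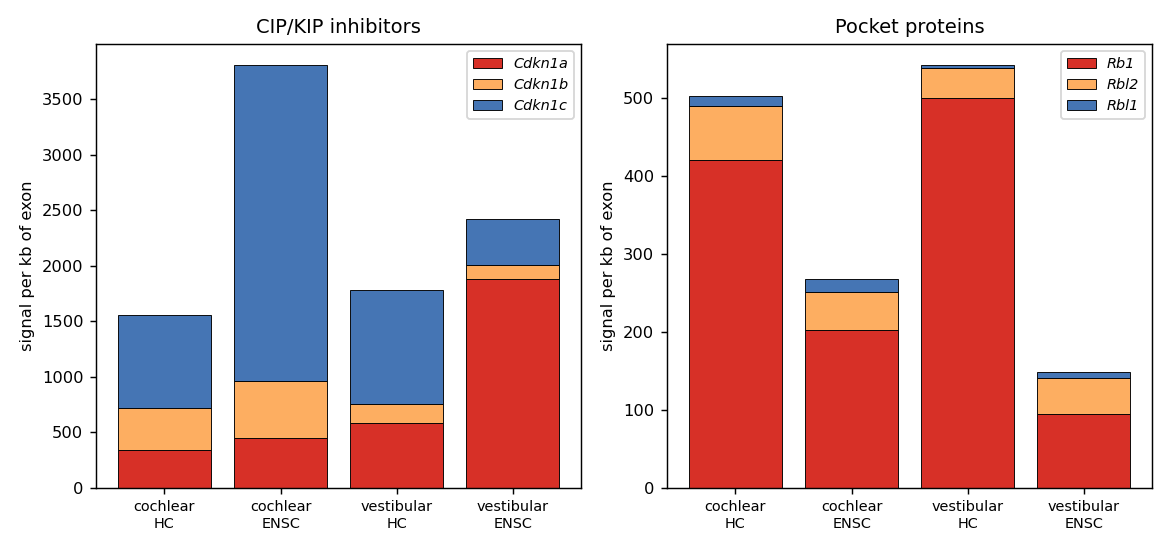
Stacked level (signal per kb of exonic length, axis from 0) of the CIP/KIP genes and of the pocket protein genes in each of the 4 libraries, 1 library per bar and no error. The largest CIP/KIP segment is *Cdkn1c* in 3 libraries and *Cdkn1a* in vestibular ENSCs (77.7%), and *Rb1* is the largest pocket protein segment in all 4.

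A correction for exonic length and GC content moved several of these calls. Over the genes above the floor in both libraries, the log2 ratio had a rank correlation with GC content of -0.40 in the vestibular HC to ENSC contrast and -0.45 between the ENSC libraries, and of -0.04 and 0.02 in the cochlear and the HC contrasts, so the larger values were those of the 2 contrasts that hold vestibular ENSCs. *Cdkn1c* and *Cdkn1a* are GC-rich members (59.7% and 54.5%), and *Rb1* is the poorest in GC (40.6%). After correction *Cdkn1c* had a cochlear log2 ratio of -1.49, no longer 3-fold, and a vestibular one of 2.58, past it, so its opposite signs were kept and its difference between organs was larger. *Cdkn1a* was at -0.84 in the vestibular system and -1.54 between ENSCs, both under 3-fold. *Rb1* was still past 3-fold in the vestibular system at 1.73, whereas between the ENSCs it was at 0.37 where it had been at 1.09. *Cdkn1b* was at 1.50 between the ENSCs, under 3-fold. For *Cdkn1b* the vestibular log2 ratio turned to -0.07 and for *Rbl2* the ENSC log2 ratio turned from 0.10 to -0.18. *Rbl1* was at -1.63 in the vestibular system, a value that rests on its unranked vestibular HC signal and is not counted as a call here. What part GC content and the other cell types had in the vestibular ENSC values was not tested.

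**Figure D4:**
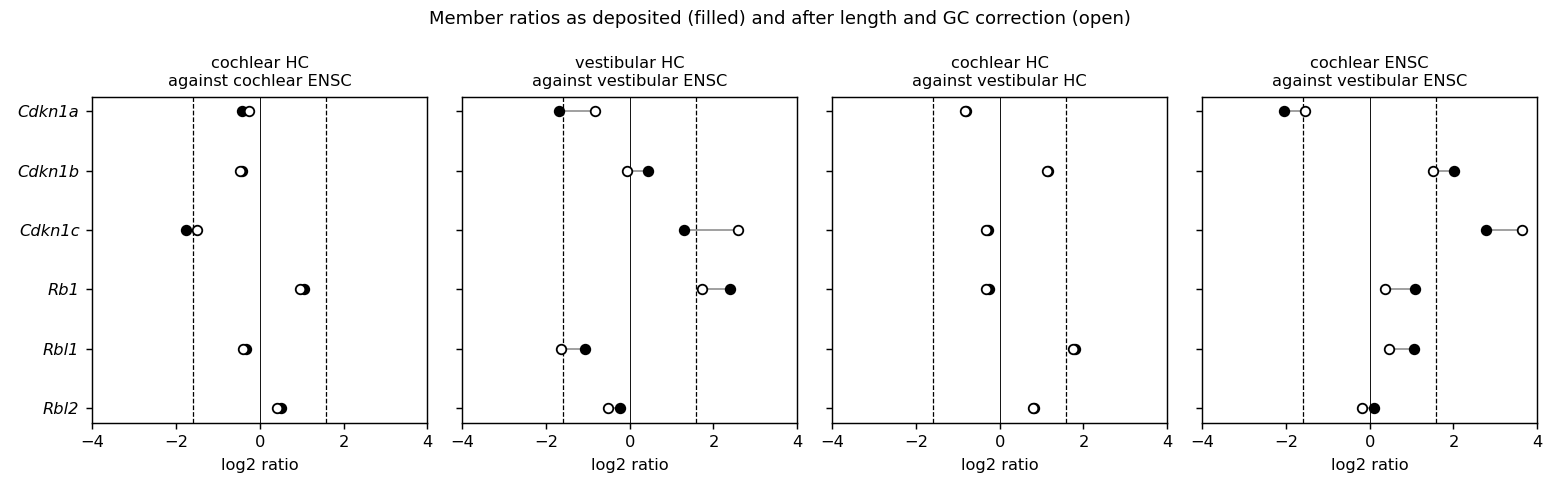
Log2 ratios of the 6 members in the 4 contrasts as deposited (filled points) and after correction for exonic length and GC content (open points), with lines at 3-fold. In the vestibular contrast *Cdkn1a* goes from -1.68 to -0.84, *Rb1* from 2.39 to 1.73 and *Cdkn1c* from 1.30 to 2.58.

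Several of the kinases and cyclins that the inhibitors act on had a lower signal in vestibular HCs than in the ENSCs beside them. As the background for the lists, 8.39% of all genes were at least 3-fold higher and 9.2% lower in cochlear HCs, and 13.8% were higher and 14.3% lower in vestibular HCs. Of 9 genes measured of 9 in the G1 list, which holds cyclins, CDKs and *Cdc25a*, a phosphatase that activates CDKs, none was higher and 4 were lower in the vestibular system, with a median log2 ratio of -1.18, and 1 was lower in the cochlea, with a median of -0.28. *Ccnd2*, a D-type cyclin, had signals of 71 in cochlear HCs, 610.25 in cochlear ENSCs, 184.25 in vestibular HCs and 1998 in vestibular ENSCs, and was the lower in HCs for each organ (log2 ratios -3.10 and -3.44). *Cdk4*, the partner of D-type cyclins, had 176, 295, 175.25 and 894 in the same order (log2 ratios -0.75 and -2.35). *Ccnd3* was at least 15-fold and *Cdk2* at least 3.18-fold lower in vestibular HCs than in vestibular ENSCs. After the correction *Ccnd2* still passed in both organs and *Cdk4* in the vestibular system, *Ccnd3* passed there with a smaller log2 ratio of -2.67, and *Cdk2* was at -1.74, a value that rests on its unranked vestibular HC signal. *Ccne2*, an E-type cyclin, had log2 ratios of 1.47 and 1.21, under the threshold.

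Downstream of the pocket proteins lie the E2F factors and the genes of S and M phase. Of 8 E2F and DP genes measured of 10 listed, none passed 3-fold in either organ, and the median log2 ratios were 0.35 and 0.16. Of 5 genes of the MuvB complex and its partners measured of 7, none passed in the cochlea (median 0.36) and *Lin52*, a MuvB subunit, was higher in vestibular HCs at 89.75 against 22 (log2 ratio 2.03, median of the list 0.10). Of 14 S and M phase genes measured of 18, *Mcm2*, a subunit of the replicative helicase, was lower in cochlear HCs as deposited, with a bound of 2.72-fold. In the vestibular system *Mki67*, *Top2a* and *Mcm4* were lower in HCs and *Mcm6* higher, with a list median of -0.80 as deposited. Of the 14 vestibular HC values 6 lay in the low range that does not rank genes. With low ranges set to their top the list median was -0.29. *Mki67*, the proliferation marker, was at 414 in vestibular ENSCs and between 23.5 and 29 in the other libraries, at least 13.57-fold lower in vestibular HCs. *Kdr*, *Col1a1* and *Col3a1* were highest in that same ENSC library, and whether they and *Mki67* came from the same cells was not tested. *Top2a* was at 40.25 in vestibular HCs against 247.25 in ENSCs, and *Mcm6* at 296 against 54.25. With the correction *Mki67*, *Top2a* and *Mcm4* were still lower and *Mcm6* still higher, and *Ccna2*, an S and M phase cyclin, passed at -1.59. *Bub1* is not counted, since its vestibular HC value was at the floor. Of all genes 1285 were lower and 1887 higher after the correction.

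Of 12 genes of the p53 axis, which controls *Cdkn1a*, none passed in the cochlea (median log2 ratio 0.17), and 1 was higher and 2 were lower in the vestibular system (median -0.19), a share no larger than the 28.1% of all genes past 3-fold there. *Trp53* itself had 139.75 in cochlear HCs, 213.25 in cochlear ENSCs, 102.75 in vestibular HCs and 474.25 in vestibular ENSCs, and its vestibular log2 ratio was -2.21. *Sesn2*, a stress-induced p53 target, was lower in vestibular HCs (-2.61, and -1.42 after the correction). *Trp53inp1*, a p53-induced nuclear protein, was higher (2.16, and 1.37 corrected). *Mdm2*, the p53 ubiquitin ligase and target, had 1172.75 in cochlear HCs, 604 in cochlear ENSCs, 1061.75 in vestibular HCs and 579.25 in vestibular ENSCs, higher in HCs but under 3-fold. Among the 4 libraries, vestibular ENSCs had the highest value of *Cdkn1a*, *Trp53* and the p53 targets *Btg2* (7246.75), *Sesn2* (199.5) and *Sesn1* (190), and the lowest of *Gadd45a* (160.75), *Trp53inp1* (1219.75) and *Mdm2* (579.25). Under the correction the cochlear to vestibular ENSC log2 ratio turned for *Trp53inp1* (-0.19) and *Mdm2* (-0.27) and kept its sign for the others named, and *Gadd45a* passed 3-fold in vestibular HCs against ENSCs (1.92).

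Of 7 genes that turn over p27, the *Cdkn1b* product, none passed in the cochlea (median log2 ratio 0.05), and *Skp1a*, the adaptor of the SCF ubiquitin ligase, was higher in vestibular HCs (median of the list -0.10). Its signal was 22404.75 in cochlear HCs, 11265.75 in cochlear ENSCs, 55629.5 in vestibular HCs and 5687.75 in vestibular ENSCs, with log2 ratios of 0.99 and 3.29. *Skp2*, which recognises p27, had 159.75, 106.75, 190 and 80 in the same order, under 3-fold in both organs.

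Of 8 regulators of the inhibitor genes measured of 9 listed, *Atoh1*, the HC determinant, was higher in HCs of both organs, and *Foxo1* and *Foxo4*, which activate *Cdkn1b*, were lower in both. In the vestibular system *Sox2* and *Mycn* were also higher in HCs and *Myc* lower, and the list medians were -0.79 and -1.51. *Sox2*, which is needed for the sensory progenitors that express p27, had 2659.5 in cochlear HCs, 2103.75 in cochlear ENSCs, 3960.75 in vestibular HCs and 465.75 in vestibular ENSCs. *Foxo1* had 191.75 in cochlear HCs, 683.25 in cochlear ENSCs, 229.75 in vestibular HCs and 1621 in vestibular ENSCs. Of the regulators, 3 were higher after the correction and *Foxo1* alone was lower, in vestibular HCs.

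*Cdkn1c* lies in an imprinted region of distal chromosome 7, and 2 of 6 listed neighbours were measured. *Kcnq1ot1*, *Phlda2*, *Slc22a18* and *Ascl2* were not analysed here. *H19*, a maternally expressed non-coding RNA, had 115.5 in cochlear HCs, 6676.75 in cochlear ENSCs, 30.5 in vestibular HCs and 1504 in vestibular ENSCs. *Igf2*, the paternally expressed growth factor gene beside it, had 149, 5119, 30.5 and 567 in the same order. The vestibular HC values of *H19* and *Igf2* lay in the low range that does not rank genes, so ratios to them are lower bounds. Both were lower in HCs than in ENSCs in both organs, whereas *Cdkn1c* was lower in HCs in the cochlea and higher in HCs in the vestibular system. All 3 were higher in cochlear than in vestibular ENSCs.

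**Figure D5:**
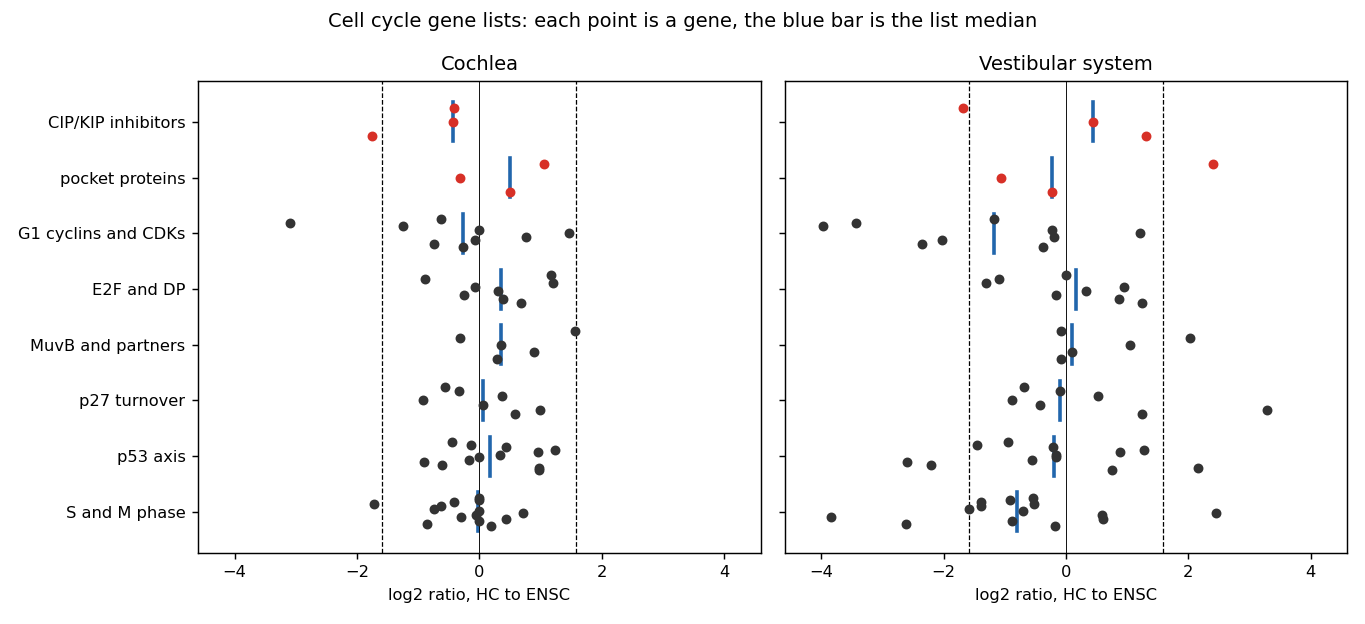
HC to ENSC log2 ratio (x axis) of every measured gene of the members and of 6 pathway lists, cochlea at left and vestibular system at right, with list medians as bars and lines at 3-fold. The G1 cyclins and CDKs, with *Cdc25a*, have medians of -0.28 and -1.18, and the E2F and DP genes have none past 3-fold.

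Genes with patterns most like those of the members were sought among 4814 protein-coding genes with all values over 100, by the root mean square distance of log2 signals over the 4 libraries after centring each gene. Nearest to *Rb1* were *Hsf2* (distance 0.06) and *Ssx2ip* (0.06), and *Hsf2* had 935.75, 417.75, 1004 and 208.75 in cochlear HCs, cochlear ENSCs, vestibular HCs and vestibular ENSCs. Nearest to *Cdkn1c* was *Spock1* (0.15), with 1143.25, 3220, 1443.5 and 619.5 in that order. *Cdkn1a* was nearest to *Ppp2r2b* (0.09) and *Cldn9* (0.11) and *Cdkn1b* to *Zfp111* (0.08). No partner is given for *Rbl1*, whose vestibular HC value is unranked. Without it, the nearest pair among the members was *Cdkn1b* and *Cdkn1c* (0.59), and the farthest was *Rb1* and *Cdkn1a* (1.79). With 4 points per gene such likeness is a description of these libraries.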

How the data were processed

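RNA of 4 sorted populations was amplified with NuGEN Ovation and sequenced. The labels name polyA RNA as the molecule, and the methods total RNA as the input. The unit deposited is a signal. Per the methods and labels the authors used TopHat to align the first 50 nt of reads to mm9 and HTSeq for gene counts. The methods give quantile normalization and then a floor of 20, whereas the name of the deposited data gives the floor first. Which order was used was not tested. The design text speaks of triplicates, and 1 column per population was analysed. Versions, strand setting and the handling of replicates are not given in the sources used here. Quantile normalization hides depth and overall shifts, so depth is unknown and no counting error is given. Columns were matched to samples by title.

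Ratios used deposited values with no pseudocount (Python 3.11.15, pandas 2.3.3, numpy 2.4.6), and 3-fold was the threshold. Positions, exonic length and GC content came from GENCODE for NCBIM37 (mm9), which matched 12799 genes. The correction was a local regression on length and then GC (statsmodels 0.14.6, 0.3 of genes, 2 robust iterations). Low values that do not rank genes were found per library, and folds against them are given from the top of that range. That setting and the corrected family sums were chosen after seeing the data. The scripts were tested on simulated data. The named genes were the 6 members, the genes of each list past 3-fold in an HC to ENSC contrast, and the genes with the nearest patterns. Members, lists and rules were chosen with earlier results of these data known. Genes named beyond this were chosen after their values were seen. Part of the glial marker list is not reported here.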

Additional observations from a re-analysis of the deposited data

Results flagged for a closer look

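In 3 of the 6 members the HC to ENSC log2 ratio had opposite signs in the cochlea and the vestibular system. The vestibular minus the cochlear log2 ratio was 3.06 for *Cdkn1c*, 0.86 for *Cdkn1b* and -0.73 for *Rbl2*. With 1 library per population the difference between organs was not tested. For *Cdkn1b* both ratios were small, at -0.43 and 0.43, and the sign in the vestibular system turned under the correction for length and GC content.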

How the results depend on the processing

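Of the comparisons of the members, most kept their direction and their side of the 3-fold threshold, but not every setting could move them. Floors of 50 and 100 left every member but *Rbl1* unchanged, since the others lay above both. The length and GC correction ended the 3-fold calls of *Cdkn1c* in the cochlea (-1.49) and *Cdkn1a* in the vestibular system (-0.84). Between ENSCs it ended those of *Cdkn1b* (1.50) and *Cdkn1a* (-1.54). The count of members higher in cochlear than in vestibular HCs went from 1 to 0 with floors of 50 and 100, pseudocounts of 20 and 100, and low ranges set to their top. Of all genes 2.3%, 1.47%, 2.29%, 0.897% and 3.26% were higher under these settings, in that order. The *Rbl1* log2 ratio was 0.70, 0.00, 1.22, 0.56 and 1.42. The *Rbl1* difference between organs turned to 0.32 and 0.025 with the floors. With a threshold of 2-fold the members counted were 1 higher in cochlear HCs, 2 higher and 2 lower in vestibular HCs, 2 higher in cochlear than vestibular HCs and 4 higher in cochlear than vestibular ENSCs, where 16.5%, 23.5% and 24.5%, 10.5% and 17.3% of all genes were. *Rbl1*, 1 of the 2 lower, has a bound of 1.61-fold, under this threshold. The length and GC correction left 0 lower in cochlear HCs (8.66% of all genes) and 2 higher in vestibular HCs (14.7%). Between ENSCs it left 1 higher (7.0%) and 0 lower (5.32%) in the cochlea. It turned the *Cdkn1b* vestibular log2 ratio to -0.071 and the *Rbl2* ENSC log2 ratio to -0.18, and the log2 ratio of the summed vestibular CIP/KIP level from -0.44 to 0.35 with HC values held and 0.59 with ENSC values held. In the vestibular contrast the corrected count of all genes was 1887 higher and 1285 lower, 59.5% higher against 49.0% before. It shifted the median of all genes there by 0.12, and the low ranges at their top by 0.17. For each setting 1 library per population leaves no replicate spread. No paired analysis was possible because each population had 1 library. The depth behind a value is unknown, and *Rbl1* had the lowest signal of the members in every library.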
